A study of Homo sapiens with 6 samples.

Results

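Interferon effectors and antigen presentation genes were examined in HEK293T, a cell line from embryonic kidney, as 56 named genes that are best known as targets of interferon signalling. They comprised 44 effectors, which act against viruses or regulate that defence, and 12 genes of the class I antigen presentation route. The members were the rows of the authors' deposited table that carry one of these gene names, and 35 of the 56 were listed among its 14538 genes, namely 25 effectors and 10 antigen presentation genes. Both groups carried a homozygous miniAID tag on INTS8, a subunit of the Integrator complex that ends transcription of many RNA polymerase II products. Auxin, a plant hormone, is used to direct proteins with this tag to the proteasome. The control group was 3 libraries without auxin, and the treated group was 3 libraries after 48 h in 100 µM auxin. Ribosomal RNA was removed before directional library preparation, per the labels' protocols. The labels do not say whether the cells are 1 clone or whether each library had its own culture. The p-values therefore reflect spread among the libraries alone, and that spread may be technical. Auxin-treated cells without the tag were not analysed here, so an action of auxin itself and one of INTS8 loss cannot be told apart.

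The remaining 21 members, not analysed here because they had no row under their name or gene identifier, were OAS1, OAS2, OASL, MX2, IFI16, IFI27, IFI44, IFI44L, IFITM3, RSAD2, BST2, XAF1, SAMD9L, PARP10, PARP12, PARP14, TRIM22, SP100, SP110, PSMB8 and PSMB10. The sources used here do not give how genes entered the table, so the counts below describe the 35 listed genes and not the families as a whole. The table gives the comparison of the 2 groups, and values per library were not used here. Each gene is therefore described by a level per group, derived from the table in normalized counts per kb of transcript, and by the fold change of auxin over no auxin. Its header does not name the numerator, and auxin was taken as the numerator by convention. Were auxin the denominator instead, all directions below would turn round. In RNA from whole cultures, more cells that express a gene and more RNA per cell cannot be told apart.

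Interferons bind receptors on the cell surface and, through the JAK kinases, activate STAT proteins. With IRF9 these form a factor that binds the interferon-stimulated response element (ISRE) in target promoters, and IRF proteins bind closely related sequences. The effectors so induced bind foreign RNA, cleave RNA, block viral entry or modify proteins, while the antigen presentation genes cut proteins into peptides, carry them into the endoplasmic reticulum and display them on class I molecules. Several of these genes also have a basal level in uninfected cells.

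Many promoters of the members hold that element. RefSeq promoters on GRCh38.p14, from 250 bases before to 50 after the gene start, were found for 30 of the 35 listed members; IFIT2, IFITM2, USP18, PML and HLA-E were not matched. Where a gene had several, the one nearest the start in the authors' table was used, and 25 of the 30 lay within 100 bases of that start. The others were HERC6 at 113, TAP1 at 274, TAPBP at 309, UBE2L6 at 349 and ISG15 at 12359 bases from it, so these windows may not be those of the transcripts counted. The ISRE core was searched as 2 copies of GAAA with any 2 bases between them, or of TTTC where it lies on the other strand, with overlapping matches counted. A match was present in 21 of the 30 promoters (70%), against 271 of 10728 promoters of all genes in the table (2.53%). Among the 25 nearest promoters it was 18 (72%). The members were named as interferon targets, so this share describes the choice of genes and not a response in these cells. The following 60-base stretches, each 5′ to 3′ on the strand of the gene with the ISRE core in capitals, are shown because they carry the match in members that rose most, in 2 that fell, in the IFIT cluster and in 3 antigen presentation genes.
ISG20: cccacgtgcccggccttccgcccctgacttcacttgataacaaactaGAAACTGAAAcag
IFI6: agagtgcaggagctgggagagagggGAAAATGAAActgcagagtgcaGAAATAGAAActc
IFITM1: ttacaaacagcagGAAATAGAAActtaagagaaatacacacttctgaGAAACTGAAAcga
IFIT3: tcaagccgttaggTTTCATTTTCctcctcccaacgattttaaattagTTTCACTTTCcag
IFIT1: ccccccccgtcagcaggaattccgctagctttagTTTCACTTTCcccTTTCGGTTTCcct
IFIT5: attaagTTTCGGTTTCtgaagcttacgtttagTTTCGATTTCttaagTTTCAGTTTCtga
B2M: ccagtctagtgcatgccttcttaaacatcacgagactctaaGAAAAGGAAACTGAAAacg
PSME2: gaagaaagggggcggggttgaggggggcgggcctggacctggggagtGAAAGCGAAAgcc
TAP2: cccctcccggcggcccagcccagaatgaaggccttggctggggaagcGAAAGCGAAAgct
OAS3: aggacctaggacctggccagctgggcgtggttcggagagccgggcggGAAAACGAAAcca
LGALS3BP: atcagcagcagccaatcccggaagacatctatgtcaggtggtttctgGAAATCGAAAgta
On GRCh38.p14 these stretches lie at chr15:88638900-88638959 for ISG20, chr1:27672273-27672332 for IFI6, chr11:313987-314046 for IFITM1, chr10:89327828-89327887 for IFIT3, chr10:89392473-89392532 for IFIT1, chr10:89414517-89414576 for IFIT5, chr15:44711332-44711391 for B2M, chr14:24146626-24146685 for PSME2, chr6:32838785-32838844 for TAP2, chr12:112938415-112938474 for OAS3 and chr17:78979969-78980028 for LGALS3BP. IFI6, PSME2, TAP2 and LGALS3BP are on the minus strand and the others on the plus strand. By the gene starts in the authors' table, the cores of ISG20 and PSME2 lie past the start, inside the gene. The last cores of IFITM1 and IFIT5 run across it.

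An ISRE core was present in members of every call. It was found in 13 of 18 promoters of members that rose, in 3 of 4 of those that fell and in 5 of 8 of those that did not pass. Among effectors the counts were 10 of 12, 2 of 3 and 3 of 6, and among antigen presentation genes 3 of 6, 1 of 1 and 2 of 2, and these shares were not tested against each other. The fallers OAS3, TAPBP and LGALS3BP held it, while the rising genes PSMB9, HLA-B, HLA-C, IFI35 and PARP9 did not hold these letters in the window. DTX3L and TAP1, which start close to PARP9 and PSMB9 on the other strand, did hold it in their own windows. In IFIT5, a member that did not pass, 3 matches were present, as many as in IFI6. The GAS element TTCNNNGAA, bound by STAT dimers, was present in 2 of the 30 promoters, against 5.87% of all promoters. The AP-1 site TGANTCA was present in 3 of 30, against 3.69%, and the CRE site TGACGTCA in 0 of 30, against 3.42%. The searches cover both strands, and a match is a description of letters and not of a bound site.

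**Figure D1:**
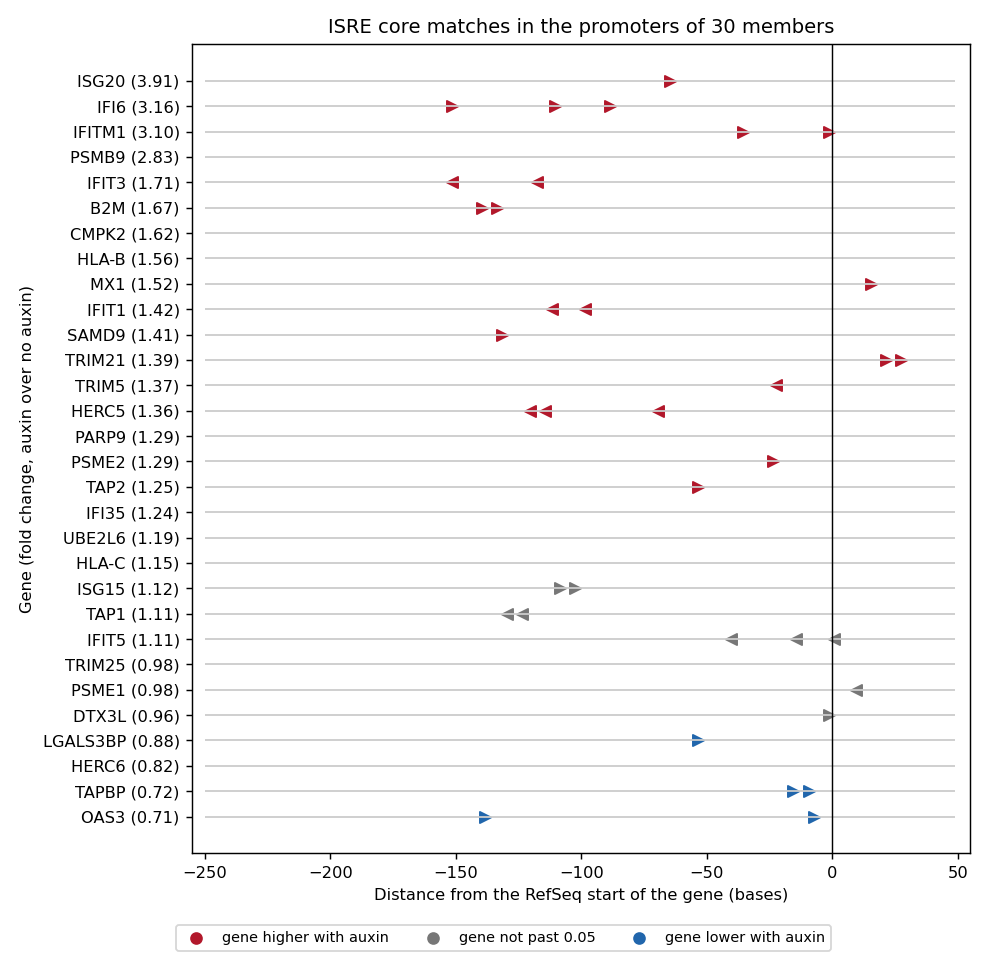
Positions of ISRE core matches in the promoters of 30 listed members, as the distance of the match from the RefSeq gene start in bases (x axis), with genes ordered by fold change of auxin over no auxin (y axis, fold in brackets). Triangles pointing right are matches on the gene's strand and those pointing left are matches on the other strand, red for genes that rose, blue for genes that fell and grey for genes that did not pass. Matches are present in genes that rose, fell or did not pass, and 9 of the 30 rows hold no triangle.

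Effectors moved in both directions, with more rises than falls. By the authors' deposited table, of 25 listed effectors 12 rose (48%), 4 fell (16%) and 9 did not pass an adjusted p of 0.05. Over all 14538 genes 27.8% rose and 28.9% fell by the same rule. The median log2 fold change of the effectors was 0.37, against 0.00 for all genes. Of the 25 listed effectors, 3 passed with a change of at least 2-fold, ISG20, IFI6 and IFITM1, all of them rises. By that rule 7.88% of all genes rose and 1.36% fell.

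ISG20, an exonuclease that degrades single-stranded RNA, had the largest fold change of the members. Its derived level per the authors' deposited table was 25.5 per kb without auxin and 99.7 per kb with auxin. The fold change was 3.91 per the authors' deposited table, with a 95% interval from 2.38 to 6.44 (log2 fold change 1.97, derived standard error 0.37, adjusted p 3.40e-07). The standard error was derived from the deposited p on the assumption of a two-sided Wald test, and all intervals below rest on it. ISG20 was a low gene, with a mean level of 33 normalized counts over both groups, which is why its interval is wide. The gene lies at chr15:88638941-88650386 in hg38 on the plus strand. Its nearest listed neighbour upstream on that strand is AEN, 6660 bases away, at 0.833-fold per the authors' deposited table (adjusted p 2.24e-04), so the adjacent genes moved in opposite directions.

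IFI6, a small membrane protein that protects the endoplasmic reticulum from viral remodelling and counters cell death, rose from a derived level of 194 per kb to 615 per kb per the authors' deposited table. Its fold change was 3.16 per the authors' deposited table (95% interval 2.64 to 3.79, log2 fold change 1.66, derived standard error 0.13, adjusted p 7.95e-35). IFI6 lies at chr1:27666064-27672198 in hg38 on the minus strand. IFITM1, which hinders fusion of viral and cell membranes, went from 551 to 1710 per kb per the authors' deposited table. The corresponding fold change per the authors' deposited table was 3.10 (95% interval 2.74 to 3.52, log2 fold change 1.63, derived standard error 0.09, adjusted p 9.54e-68).

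IFITM2, a close relative of IFITM1 that lies 4645 bases away from it on chromosome 11 by the coordinates in the authors' table, did not pass. Its derived level was 791 per kb without auxin and 875 per kb with auxin, a fold change of 1.11 per the authors' deposited table (95% interval 0.997 to 1.23, adjusted p 0.0936). The intervals of the neighbours do not overlap. The gene models of GENCODE 29 reach further than those coordinates, so that IFITM1 and IFITM2 overlap on the same strand there, and how reads were divided between them is uncertain. LGALS3BP, a secreted glycoprotein that binds galectins, had the highest effector level and fell from 2405 to 2109 per kb, at 0.877-fold per the authors' deposited table (95% interval 0.811 to 0.949, log2 fold change -0.19, derived standard error 0.06, adjusted p 2.55e-03). The class named membrane and entry, in which LGALS3BP was placed, thus held the rises of IFI6 and IFITM1 and a small fall.

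**Figure D2:**
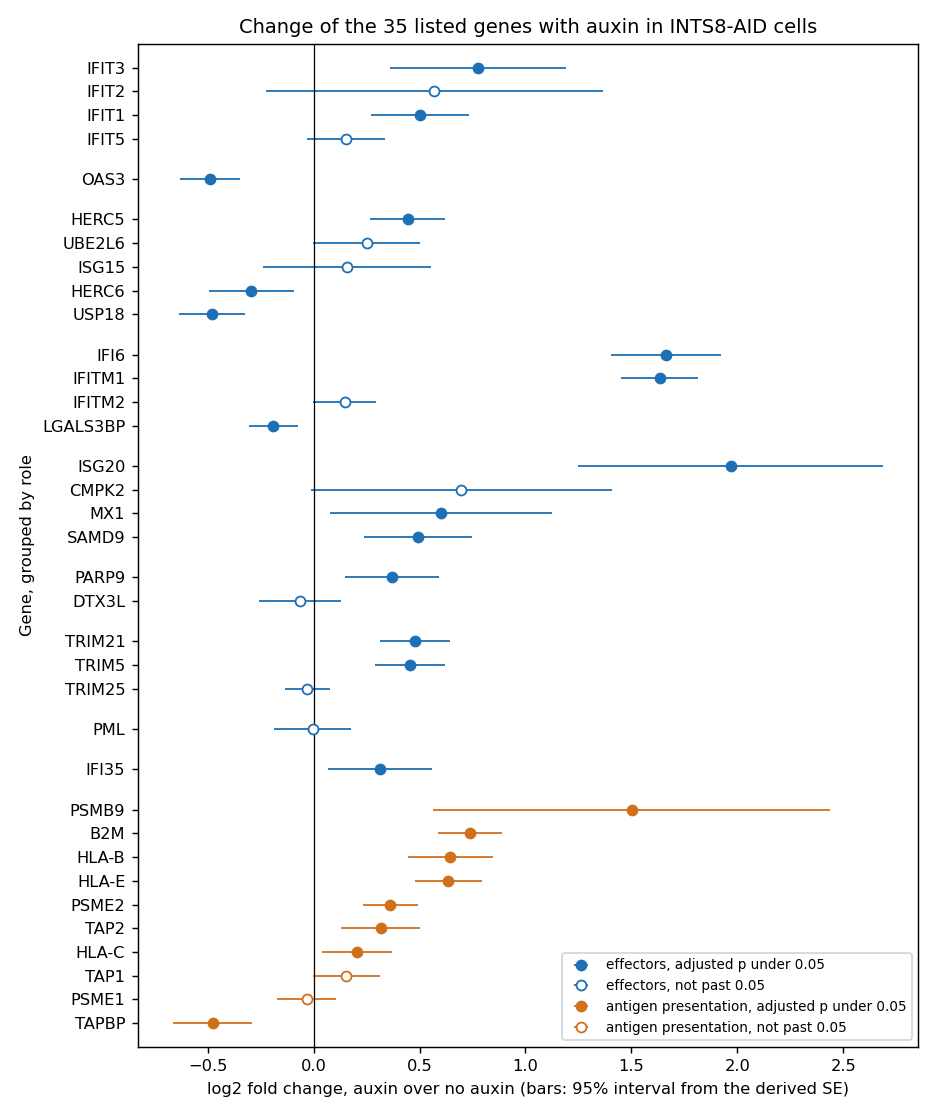
Log2 fold change of auxin over no auxin (x axis) for the 35 listed genes (y axis), grouped by role, effectors in blue and antigen presentation genes in orange; bars are 95% intervals from the derived standard error and filled points passed an adjusted p of 0.05. ISG20, IFI6, IFITM1 and PSMB9 stand to the right of a log2 fold change of 1, and OAS3, USP18, TAPBP, HERC6 and LGALS3BP are the filled points left of zero.

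IFIT proteins recognise the end of foreign or unprocessed RNA and block its translation. The 4 genes IFIT2, IFIT3, IFIT1 and IFIT5 lie in that order in a cluster on chromosome 10. IFIT3 rose from 23.4 to 40.0 per kb, at 1.71-fold per the authors' deposited table (95% interval 1.28 to 2.29, log2 fold change 0.78, derived standard error 0.21, adjusted p 6.90e-04). IFIT1 rose from 45.2 to 64.0 per kb, at 1.42-fold per the authors' deposited table (95% interval 1.21 to 1.66, log2 fold change 0.50, derived standard error 0.12, adjusted p 6.84e-05). Both are low genes, and the highest of the cluster, IFIT5, stood at 225 and 250 per kb and did not pass, at 1.11-fold per the authors' deposited table (95% interval 0.979 to 1.26, adjusted p 0.155). IFIT2 was the lowest listed member, at 5.31 per kb without auxin and 7.88 per kb with it, and its 1.48-fold difference per the authors' deposited table had an interval from 0.856 to 2.58 (adjusted p 0.227), so that a change of the size seen in IFIT3 was not detectable for it. The IFIT3 interval does not overlap that of IFIT5, whereas that of IFIT1 does.

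OAS3 makes a second messenger that leads to RNA decay when it binds double-stranded RNA, and it was the 1 listed member of the 4 in the OAS family. OAS3 fell from 236 to 168 per kb, the deepest fall among the 35 listed genes, though its interval overlaps those of USP18 and TAPBP. Its fold change per the authors' deposited table was 0.712 (95% interval 0.647 to 0.785, log2 fold change -0.49, derived standard error 0.07, adjusted p 3.84e-11). OAS3 lies at chr12:112938474-112973251 in hg38.

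ISG15 is a ubiquitin-like protein that is attached to other proteins by enzymes including UBE2L6 and HERC5 and removed by USP18, which also restrains signalling from the interferon receptor. ISG15 itself did not pass, with 95.2 per kb without auxin and 106 per kb with auxin, at 1.12-fold per the authors' deposited table (95% interval 0.849 to 1.47, adjusted p 0.521). The conjugating enzyme UBE2L6 did not pass either, at 136 and 162 per kb and 1.19-fold per the authors' deposited table (95% interval 0.998 to 1.42, adjusted p 0.0867). The ligase HERC5 rose from 185 to 252 per kb, at 1.36-fold per the authors' deposited table (95% interval 1.20 to 1.54, log2 fold change 0.44, derived standard error 0.09, adjusted p 3.68e-06). USP18, which has partial copies elsewhere in the genome that can share its reads, fell from 626 to 449 per kb, at 0.717-fold per the authors' deposited table (95% interval 0.644 to 0.799, log2 fold change -0.48, derived standard error 0.08, adjusted p 8.61e-09). HERC6, a relative of HERC5 that starts upstream of it on chromosome 4 with 14008 bases between them, fell from 112 to 91.2 per kb, at 0.815-fold per the authors' deposited table (95% interval 0.709 to 0.937, log2 fold change -0.29, derived standard error 0.10, adjusted p 8.48e-03). The 5 genes of this system split into 1 rise (20%), 2 falls (40%) and 2 that did not pass, where 27.8% of all genes rose and 28.9% fell.

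Among GTPases, nucleases and nucleotide enzymes, SAMD9, a cytosolic inhibitor of poxvirus growth, rose from 70.0 to 98.6 per kb, at 1.41-fold per the authors' deposited table (95% interval 1.18 to 1.68, log2 fold change 0.49, derived standard error 0.13, adjusted p 3.99e-04). MX1, a GTPase that traps viral nucleoproteins, rose from 10.5 to 16.0 per kb, at 1.52-fold per the authors' deposited table (95% interval 1.06 to 2.18, log2 fold change 0.60, derived standard error 0.27, adjusted p 0.0430). Its call was lost at an adjusted p of 0.01. CMPK2, a mitochondrial nucleotide kinase, was at 6.21 and 10.1 per kb and did not pass, at 1.62-fold per the authors' deposited table (95% interval 0.991 to 2.66, adjusted p 0.0887). With ISG20, 3 of the 4 listed genes of this class rose and 0 fell, where 27.8% of all genes rose and 28.9% fell.

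PARP9 and DTX3L form a complex of an ADP-ribosyltransferase relative and a ubiquitin ligase, and their genes lie head to head on chromosome 3, with an annotated overlap of opposite strands. PARP9 rose from 91.8 to 119 per kb, at 1.29-fold per the authors' deposited table (95% interval 1.11 to 1.51, log2 fold change 0.37, derived standard error 0.11, adjusted p 2.59e-03). DTX3L was at 143 and 137 per kb and did not pass, at 0.957-fold per the authors' deposited table (95% interval 0.836 to 1.09, adjusted p 0.606). The intervals of the partners do not overlap. The sources used here do not say whether counting used the strand, so reads from the overlap may have been assigned to either gene. The same limit holds for IFIT1, IFIT2 and IFIT3, which overlap LIPA on the opposite strand, for PSME1 with EMC9, CMPK2 with RSAD2 and TAP1 with PSMB8-AS1, and for ISG15, IFI6, MX1, OAS3 and TRIM25, which overlap antisense genes. TAP2 and TRIM5 each overlap another annotated gene on their own strand.

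TRIM proteins are ubiquitin ligases, of which TRIM5 recognises retroviral capsids, TRIM21 binds antibody inside the cell and TRIM25 acts on the RNA sensor RIG-I. TRIM21 rose from 374 to 521 per kb, at 1.39-fold per the authors' deposited table (95% interval 1.24 to 1.56, log2 fold change 0.48, derived standard error 0.08, adjusted p 6.14e-08). TRIM5 rose from 254 to 348 per kb, at 1.37-fold per the authors' deposited table (95% interval 1.22 to 1.54, log2 fold change 0.46, derived standard error 0.08, adjusted p 2.17e-07). TRIM25, the highest of the 3 at 792 and 775 per kb, stood at 0.979-fold per the authors' deposited table, and its interval from 0.910 to 1.05 leaves out changes of the size of the other two (adjusted p 0.654). PML, the scaffold of nuclear bodies, was at 363 and 362 per kb and did not pass, at 0.997-fold per the authors' deposited table (95% interval 0.879 to 1.13, adjusted p 0.970). IFI35, a partner of NMI in innate signalling, rose from 328 to 407 per kb, at 1.24-fold per the authors' deposited table (95% interval 1.05 to 1.47, log2 fold change 0.31, derived standard error 0.13, adjusted p 0.0239), a call lost at an adjusted p of 0.01. For its partner NMI, chosen with its value known, the authors' deposited table gave 0.963-fold (adjusted p 0.844).

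Antigen presentation genes rose in 7 of 10 listed cases (70%) per the authors' deposited table, while 1 fell (10%) and 2 did not pass. Over all genes 27.8% rose and 28.9% fell. The class I chains rose in 4 of 4 cases, the immunoproteasome and its activator in 2 of 3, and the transporter and loading genes in 1 of 3, with 1 fall. The median log2 fold change of the 10 genes was 0.34. A rise of at least 2-fold was seen in 1 of them, PSMB9, where 7.88% of all genes rose by that much.

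B2M, the invariant light chain of all class I molecules, rose from 1637 to 2733 per kb, at 1.67-fold per the authors' deposited table (95% interval 1.503 to 1.85, log2 fold change 0.74, derived standard error 0.08, adjusted p 1.14e-20). Among heavy chains, HLA-B rose from 3218 to 5034 per kb, at 1.56-fold per the authors' deposited table (95% interval 1.36 to 1.80, log2 fold change 0.65, derived standard error 0.10, adjusted p 1.99e-09). HLA-E, which presents leader peptides to natural killer cell receptors, rose from 479 to 744 per kb, at 1.55-fold per the authors' deposited table (95% interval 1.39 to 1.74, log2 fold change 0.64, derived standard error 0.08, adjusted p 3.31e-14). The intervals of B2M, HLA-B and HLA-E overlap each other. HLA-C, the highest of all members at 4643 and 5350 per kb, changed by less, 1.15-fold per the authors' deposited table (95% interval 1.03 to 1.29, log2 fold change 0.20, derived standard error 0.09, adjusted p 0.0304). Its interval does not overlap those of B2M, HLA-B and HLA-E, and its call was lost at an adjusted p of 0.01. HLA genes are alike and vary between people and cell lines, so reads may be divided unevenly among HLA-B, HLA-C and HLA-E. HLA-C and HLA-B also overlap on the same strand in GENCODE 29, which bears on their separate intervals.

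**Figure D3:**
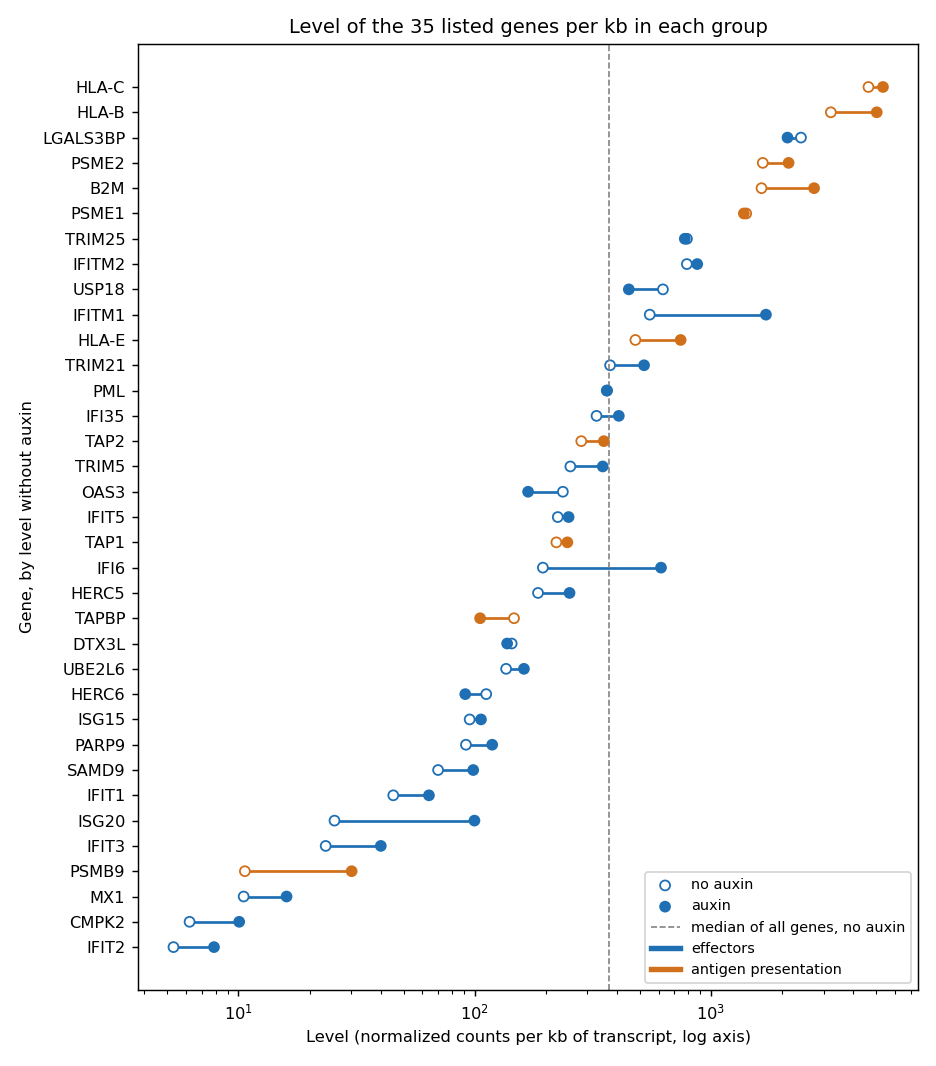
Derived level of the 35 listed genes in normalized counts per kb of transcript (x axis, log scale), without auxin (open points) and with auxin (filled points), ordered by the level without auxin (y axis), effectors in blue and antigen presentation genes in orange. The dashed line is the median of all genes without auxin, 372 per kb; HLA-C and HLA-B lead the order, and IFIT2, CMPK2, MX1 and PSMB9 are at its lower end.

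PSMB9 is the interferon-inducible proteasome subunit that replaces PSMB6 in the immunoproteasome. It rose from 10.6 to 30.1 per kb, at 2.83-fold per the authors' deposited table (95% interval 1.48 to 5.42, log2 fold change 1.501, derived standard error 0.48, adjusted p 3.82e-03), and its mean level of 20 makes the size imprecise. PSMB6, also chosen with its value known, was at 4705 and 5040 per kb and did not pass, at 1.07-fold per the authors' deposited table (adjusted p 0.200), so PSMB9 stayed far below PSMB6 per kb in both groups. The proteasome activator subunit PSME2 rose from 1658 to 2132 per kb, at 1.29-fold per the authors' deposited table (95% interval 1.18 to 1.41, log2 fold change 0.36, derived standard error 0.07, adjusted p 1.53e-07). Its partner PSME1, 4398 bases away on chromosome 14, did not pass at 1411 and 1378 per kb, with 0.977-fold per the authors' deposited table (95% interval 0.888 to 1.08, adjusted p 0.708). The subunits of the same ring therefore had intervals that do not overlap.

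TAP1 and TAP2 form the pump that carries peptides into the endoplasmic reticulum, and TAPBP (tapasin) bridges it to class I molecules. TAP2 rose from 283 to 352 per kb, at 1.25-fold per the authors' deposited table (95% interval 1.09 to 1.42, log2 fold change 0.32, derived standard error 0.10, adjusted p 2.12e-03). TAP1, which starts 214 bases from PSMB9 on the other strand, was at 222 and 247 per kb and did not pass, at 1.11-fold per the authors' deposited table (95% interval 0.996 to 1.24, adjusted p 0.0937). GENCODE 29 also annotates transcripts of TAP1 and PSMB9 that overlap on opposite strands. The interval of TAP1 overlaps that of TAP2 and not that of PSMB9, its head-to-head neighbour. TAPBP fell from 147 to 105 per kb, at 0.719-fold per the authors' deposited table (95% interval 0.632 to 0.817, log2 fold change -0.48, derived standard error 0.09, adjusted p 1.67e-06). TAPBP was thus the 1 antigen presentation gene that fell, and it lies at chr6:33299694-33314387 in hg38 on the minus strand.

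Effectors and antigen presentation genes differed more in level than in median change. Their median log2 fold changes came to 0.37 and 0.34, with ranges from -0.49 to 1.97 and from -0.48 to 1.501. Rises made up 48% of the effectors and 70% of the antigen presentation genes, and falls 16% and 10%. With only genes of a mean level of at least 100, the medians were 0.25 and 0.32, so their order turned round. The median level without auxin was 185 per kb for effectors and 945 per kb for antigen presentation genes, against 372 per kb for all genes. Summed over genes, the effectors went from 8089 to 9793 per kb, a ratio of 1.21, and the antigen presentation genes from 13707 to 18106 per kb, a ratio of 1.32, while the sum over all genes had a ratio of 1.02. LGALS3BP, which fell, held 29.7% of the effector sum without auxin, and IFITM1 gave most of its gain. Without IFITM1 the effectors went from 7538 to 8083 per kb, a ratio of 1.07. HLA-C held 33.9% of the antigen presentation sum without auxin, and HLA-B gave the largest gain in it. Without HLA-B that ratio was 1.25. The difference between the classes was not tested, because the members were chosen with earlier results known.

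**Figure D4:**
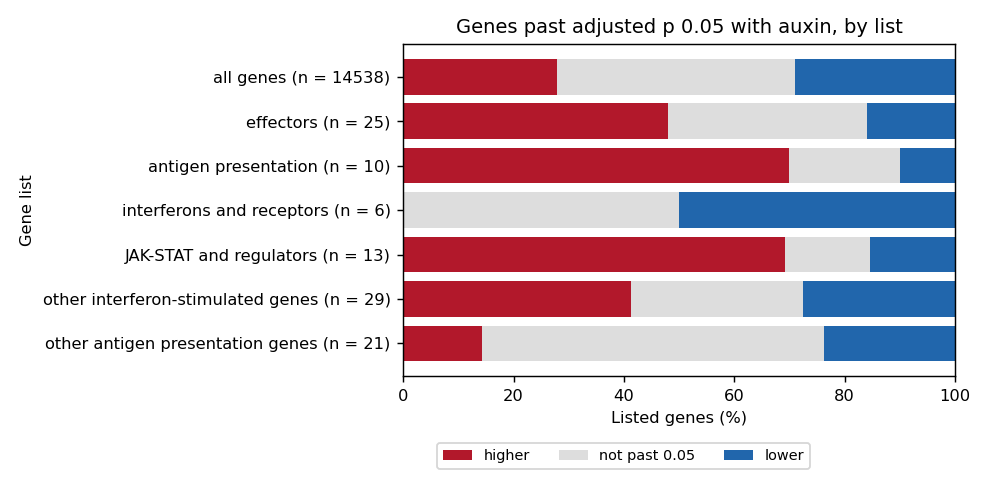
Share of listed genes (x axis, percent) past an adjusted p of 0.05 that were higher with auxin (red), lower (blue) or did not pass (grey), for all genes, both classes of members and 4 related lists (y axis, with the number of listed genes). Higher genes make up 48% of effectors and 70% of antigen presentation genes, against 27.8% of all genes, and 0% of the listed interferon receptors.

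The rest of the pathway was read from related gene lists. Of 14 interferons and receptors 6 were listed, all receptor chains, of which 0 rose and 3 fell, where 27.8% of all genes rose and 28.9% fell. IFNLR1 and IL10RB, which pair as the receptor of type III interferon, were at 0.707-fold and 0.726-fold per the authors' deposited table (adjusted p 1.10e-07 and 7.48e-06). The third was IFNGR2, at 0.753-fold per the authors' deposited table (adjusted p 3.10e-08) and named after its value was seen. The type I receptor chains IFNAR1 and IFNAR2 did not pass, at 0.947-fold and 0.893-fold per the authors' deposited table. IFNB1 and the other 7 interferon genes named had no row and were not analysed here.

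JAK-STAT genes and regulators rose in 9 of 13 cases (69.2%) and fell in 2 (15.4%), beside the same 27.8% and 28.9% of all genes. SOCS1, a feedback inhibitor of JAK kinases, went from 30.6 to 641 per kb, at 21.0-fold per the authors' deposited table (adjusted p 2.96e-196), and IRF7, which drives interferon genes, was at 4.02-fold per the authors' deposited table. STAT2 and IRF9, which bind the ISRE in 1 complex and were chosen here with their values known, rose 1.13-fold and 1.44-fold per the authors' deposited table (adjusted p 0.0288 and 9.30e-07). Other interferon-stimulated genes numbered 29 listed, with 12 rises and 8 falls and a median log2 fold change of 0.03. The largest changes in that list were DHX58, a relative of RIG-I, at 6.53-fold and HELZ2, a helicase, at 2.76-fold per the authors' deposited table. The share of falls in that list was 27.6%, close to the 28.9% of all genes, and the share of rises was 41.4%, against 27.8%.

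Other antigen presentation genes, 21 listed of 27, rose in 3 cases (14.3%, against 27.8% of all genes) and fell in 5 (23.8%, against 28.9%), with a median log2 fold change of -0.02. HLA-F and RFXANK, part of the factor that binds class I and class II promoters, were at 0.688-fold and 0.715-fold per the authors' deposited table (adjusted p 2.71e-04 and 1.28e-05). The 3 rises, named after their values were seen, were PDIA3, ERAP1 and CALR. They stood at 1.39-fold, 1.35-fold and 1.12-fold per the authors' deposited table (adjusted p 2.91e-16, 5.18e-05 and 0.0237). NLRC5, the activator of class I genes, chosen with its value known, did not pass at 0.928-fold per the authors' deposited table (95% interval 0.793 to 1.09, adjusted p 0.445).

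The cell type was checked against markers. All 5 HEK293 markers (PAX2, KRT8, KRT18, CDH2 and VIM) were listed, at 59.7 to 4620 per kb without auxin, of which 2 rose and 2 fell. Of 9 blood cell markers, which could bring HLA and interferon-stimulated RNA, 2 were listed, and the sum of their levels was 64.1 per kb without auxin and 608 per kb with auxin. That sum is nearly all CD68, a lysosomal protein, at 10.03-fold per the authors' deposited table, while HBB stood at a mean level of 1, and PTPRC, CD3E, CD14, ITGAM, CD52 and LYZ were among those with no row. Of 5 fibroblast markers 1 was listed, PDGFRA, at 17.0 and 26.1 per kb and 1.54-fold per the authors' deposited table (adjusted p 6.47e-04). Their part in the rises of the members was not tested.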

How the data were processed

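RNA-seq of 6 libraries in 2 groups of 3 was read from the authors' deposited table of their comparison. The submitters' processing notes name STAR 2.7.3a, DESeq2, hg38 and dm6; the role of dm6, the counting, the filter on genes and the model are not given in the sources used here. Per the file headers, the table holds a mean level (a score here, being rounded normalized counts), a ratio (fold change) and its log2, and p-values as given and adjusted. The deposited log2 expression column names no group. It equalled the log2 level per kb of the group in the numerator, from mean, fold and length, within 0.0165 in all 12195 genes whose mean level reached 100, and gave the levels per group, assuming groups of equal size. Depth per library is unknown, so counting intervals are not given. The adjusted p equalled Benjamini-Hochberg adjustment over 14479 genes. A gene rose or fell where its deposited adjusted p was under 0.05.

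Members, classes, lists and motifs were chosen with earlier results of these data known, so lists have counts and medians and no test. Full values, with levels per group in place of the mean level, are given for the 3 largest changes per role past 0.05 whose mean level reached 20, and for those of 2-fold or more; 2 genes are named per related list. Gene overlaps came from GENCODE 29. The derivation of the standard error, the centring and the adjustment of p-values were tested on simulated data. The levels per group, the promoter search and the gene overlaps were not. The alternatives tried were fold limits of 1.5 and 2, a stricter adjusted p (0.01), minimum mean levels (10 and 100), centring on the median gene, and adjustment over every gene or over protein-coding genes. Scripts ran in Python 3.11.15 (matplotlib 3.10.9, pandas 2.3.3, scipy 1.17.1, numpy 2.4.6). Some genes of the related lists are not reported here by name.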

Additional observations from a re-analysis of the deposited data

How the results depend on the processing

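The counts of rises and falls stayed within 1.5 times their values with an adjusted p of 0.01, mean levels of at least 10 or 100, centring, and adjustment over every gene or over protein-coding genes. Fold limits moved them by construction. At a change of at least 1.5-fold, 5 effectors rose and 0 fell, and 4 antigen presentation genes rose and 0 fell. The share of all genes at that limit was not computed, so these counts cannot be set beside it. At a change of at least 2-fold the counts were 3 and 0 for effectors and 1 and 0 for antigen presentation genes. By that limit 7.88% of all genes rose and 1.36% fell. The median log2 fold change of effectors went from 0.37 to 0.25 with a mean level of at least 100, where the low genes IFIT2, IFIT3, MX1, CMPK2, ISG20 and ISG15 leave. Of the 43 genes named by rule, 3 lost their call at an adjusted p of 0.01 (MX1, IFI35 and HLA-C). With centring, which adds 0.03 to each log2 fold change, 2 gained one (IFITM2 and TAP1). Genes named after their values were seen are not among the 43.

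No paired analysis was possible because the table holds the authors' comparison and values per library were not used here. For the same reason, leaving out libraries was not run. Low levels limit IFIT2 and CMPK2, whose intervals reach from 0.856 to 2.58 and from 0.991 to 2.66.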
